A study of Mus musculus with 6 samples.

Results

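The liver makes most of the complement and blood clotting proteins of the plasma, and the results below describe the messenger RNAs of 45 such genes in the livers of mice deficient in short-chain acyl-CoA dehydrogenase (SCADD). The 45 genes, among 55487 in the deposited files, were taken by symbol: 19 complement components, 3 complement inhibitors, 14 coagulation components, 7 inhibitors of coagulation or fibrinolysis, and 2 genes of cell adhesion and growth factor activation. All 45 symbols matched 1 gene ID each. Poly(A) RNA from 20 mg of frozen liver was sequenced in 6 male mice, each 8 weeks of age, 3 labelled WT (BALB_cJ) and 3 labelled SCADD (BALB_cBYJ). All animals were on standard chow, and each group is 1 inbred substrain. Genotype and substrain coincide in these 6 animals, so the enzyme deficiency and other differences between the substrains cannot be told apart. The title of the series sets the comparison in the context of histone H4 lysine acylation and the transcriptional response to the deficiency.

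Complement is a chain of plasma proteases that tags and lyses microbes. It starts from antibody (classical pathway), from sugar-binding lectins (lectin pathway) or spontaneously on surfaces (alternative pathway). All routes meet at C3 and end in a pore formed by the terminal components. Coagulation is a second protease chain, which ends when thrombin turns soluble fibrinogen into fibrin, and plasmin later dissolves the clot. Serine protease inhibitors (serpins) hold both chains in check, and hepatocytes secrete most of these proteins, so their mRNAs are among the abundant ones of the liver.

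The libraries held 23991104 to 27148756 gene reads in WT and 16948986 to 23912744 in SCADD, where replicate 3 was the shallowest. Unmapped reads were 13.6% to 16.4% of reads in WT and 25.1% to 36.6% in SCADD, highest in SCADD replicate 3. Their part in the results was not tested. Acads encodes the deficient enzyme (ENSMUSG00000029545, chromosome 5, 115110299 to 115119346, GRCm38). It had 185, 166 and 196 CPM in WT and 99.3, 104 and 96.96 CPM in SCADD. CPM is the count scaled to library size times edgeR's TMM factor, and it serves below to compare libraries. That size sums the genes passing the filter on low counts, and the factors ran from 0.952 to 1.047. Here and below, values of 3 libraries stand in the order of replicates 1, 2 and 3. Each library labelled SCADD lay below each WT library for Acads (log2 fold change -0.86 with SE 0.13, edgeR adjusted p = 0.00407). The liver label was met by the hepatocyte markers, of which Alb had 50830.3 ± 12644 TPM in WT against 48502 ± 16683 TPM in SCADD (SD, n = 3 each). TPM, the RSEM abundance, corrects for transcript length and serves to compare levels between genes.

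The sequences just upstream of 5 genes are shown because 4 of them fell in SCADD livers and the other, Mbl1, pairs with Mbl2. They are the 250 bases before the RefSeq transcript start (assembly GRCm38.p6, the C57BL/6J reference and not either BALB substrain), written 5′ to 3′ toward the gene. In C1s1, C8b and F11 capitals mark matches, on either strand, to short forms of 3 liver factor motifs: an HNF1 half-site (GTTAAT), a C/EBP motif (TTGCNNAA) and a FOXA motif (TGTTTNC). In Mbl1 and Mbl2 capitals mark the run of 13 bases that both share.
C1s1 (chr6:124542360-124542609, minus strand): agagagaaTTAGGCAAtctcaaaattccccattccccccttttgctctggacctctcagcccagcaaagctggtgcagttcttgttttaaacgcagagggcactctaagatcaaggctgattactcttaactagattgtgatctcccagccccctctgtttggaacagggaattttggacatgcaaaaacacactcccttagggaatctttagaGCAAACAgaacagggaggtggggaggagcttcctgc
C8b (chr4:104766067-104766316, plus strand): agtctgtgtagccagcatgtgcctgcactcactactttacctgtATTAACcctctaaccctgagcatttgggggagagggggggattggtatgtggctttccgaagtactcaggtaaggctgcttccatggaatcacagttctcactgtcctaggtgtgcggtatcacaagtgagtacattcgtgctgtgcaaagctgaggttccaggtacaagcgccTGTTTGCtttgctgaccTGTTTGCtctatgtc
F11 (chr8:45262032-45262281, minus strand): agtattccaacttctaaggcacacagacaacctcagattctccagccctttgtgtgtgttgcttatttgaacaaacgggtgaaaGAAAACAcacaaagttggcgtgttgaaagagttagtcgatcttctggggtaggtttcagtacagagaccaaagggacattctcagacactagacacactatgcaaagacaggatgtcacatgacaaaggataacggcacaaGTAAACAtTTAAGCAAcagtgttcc
Mbl1 (chr14:41151206-41151455, plus strand): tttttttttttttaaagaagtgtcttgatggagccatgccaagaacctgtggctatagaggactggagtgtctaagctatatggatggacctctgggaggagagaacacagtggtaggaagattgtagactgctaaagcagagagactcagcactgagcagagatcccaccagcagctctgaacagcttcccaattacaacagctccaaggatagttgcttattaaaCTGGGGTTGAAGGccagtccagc
Mbl2 (chr19:30232678-30232927, plus strand): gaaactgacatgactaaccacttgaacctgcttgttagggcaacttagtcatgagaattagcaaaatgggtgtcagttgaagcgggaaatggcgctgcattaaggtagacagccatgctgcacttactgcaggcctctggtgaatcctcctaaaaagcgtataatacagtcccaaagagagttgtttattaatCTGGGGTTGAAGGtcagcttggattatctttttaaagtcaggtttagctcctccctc

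C1s1 holds 1 C/EBP match and 1 FOXA match. C8b holds 1 HNF1 match and 2 FOXA matches, and F11 holds 1 C/EBP match and 2 FOXA matches. The sequences of Mbl1 and Mbl2 hold no match to these motifs, and that of Serpinf2, which also fell, is not shown. An HNF1 half-site was present in 33.3% of the 36 member promoters that the RefSeq table holds, against 6.52% of all 27025 promoters of the same length. C/EBP matches were in 25.0% against 9.55%, and FOXA matches in 33.3% against 17.9%. A TATA box (TATAAA) was found in 8.33% of member promoters against 12.97% of all. An HNF4 motif (CAAAGTCCA) was in 0 of the 36 and in 0.381% of all. No marked matches overlap. The motifs were chosen after expression values had been seen, and a match is a description of letters only. The shared run of the mannose-binding lectin genes starts 23 bases before the start of Mbl1 and 57 bases before that of Mbl2.

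Across the 45 genes, 5 were lower and 0 were higher in SCADD livers by edgeR's quasi-likelihood test at an adjusted p under 0.05. The 5 were F11 (coagulation factor XI), Mbl2 (mannose-binding lectin C), C8b (the beta chain of complement C8), C1s1 (the C1s protease) and Serpinf2 (alpha-2-antiplasmin). They are 11.4% of the 44 members tested. Of all 13498 genes tested, 7.02% were called, 2.80% lower and 4.22% higher. Under upper-quartile scaling those shares of all genes became 3.57% lower and 3.48% higher, and the members called were the same in number. DESeq2 called 11 members lower and 1 higher, where it called 4.04% of genes lower and 5.52% higher. At an unadjusted p under 0.05 edgeR gave 18 members lower, where 10.2% of genes were lower, and 2 higher.

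Log2 fold changes were negative for 34 of the 44 tested members, 77.3%, and for 50.1% of all tested genes. The members' median was -0.34 and that of all tested genes -0.00078. For 26 members, 59.1%, each SCADD library was below each WT library in CPM, where that held for 13.1% of all tested genes. In the other direction the groups did not overlap in CPM for 3 members, Mbl1, Serping1 and F5, or 6.82% of members against 14.9% of genes. In TPM the groups overlapped for C2, Cfi, F7, Klkb1, Kng1 and Plg of the 26, and for Serping1 and F5 of the 3. SCADD replicate 3 had the lowest CPM of the 6 libraries for 25 of the 44 members, 56.8%, against 21.9% of all tested genes. Without that library 5 members were called lower, where 4.93% of genes were, and the members' median was -0.245. The members share libraries and a tissue, so their counts are not independent of each other. In bulk liver, fewer cells of a type and less RNA per cell cannot be told apart.

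**Figure D1:**
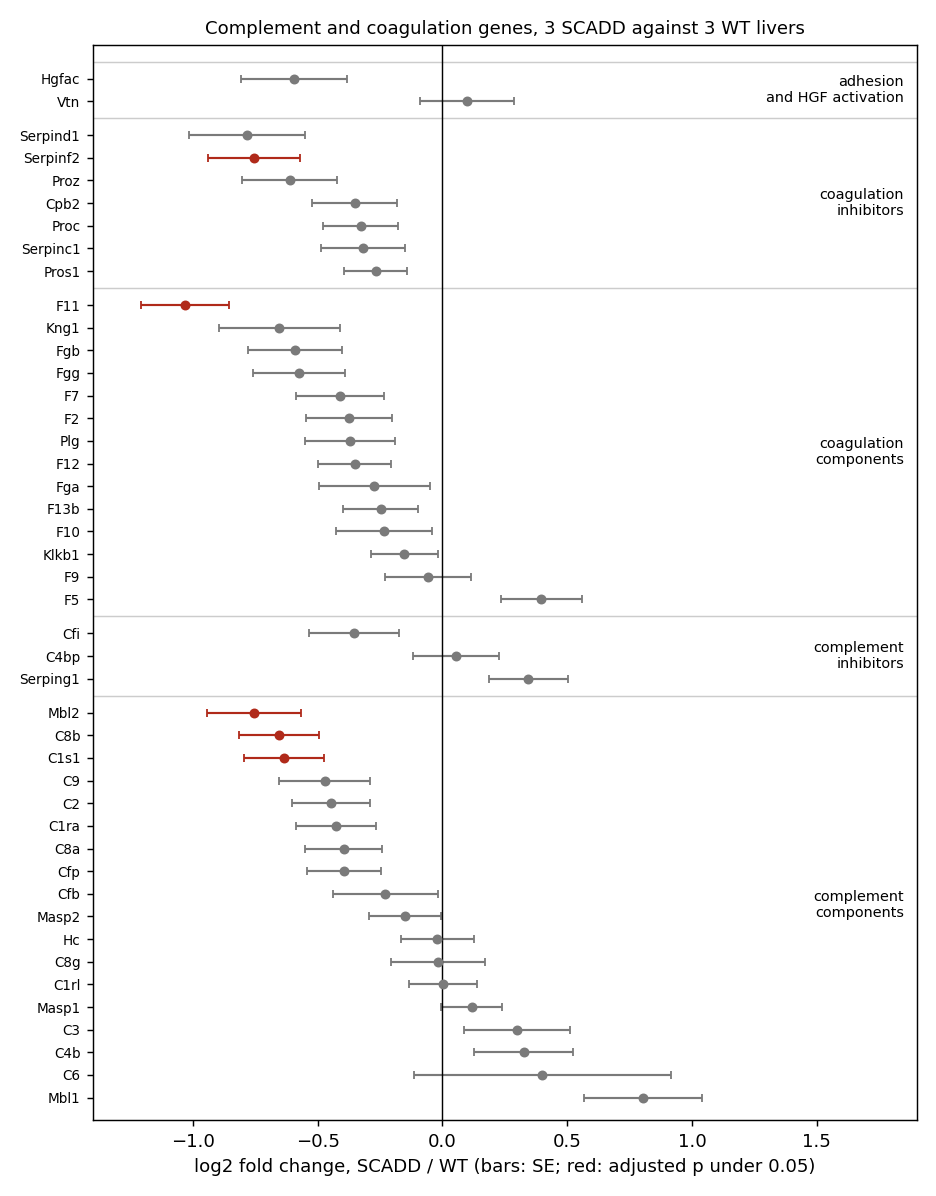
Log2 fold change of each tested member (SCADD over WT, horizontal axis) with its SE, grouped by class, with red marking an edgeR adjusted p under 0.05. The 5 red points lie between -1.03 (F11) and -0.63 (C1s1), and Mbl1 is the highest point at 0.80.

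By class, complement components gave 3 lower of 18 tested (median -0.19), complement inhibitors 0 of 3 (median 0.05), coagulation components 1 of 14 (median -0.36) and coagulation inhibitors 1 of 7 (median -0.35). No class had a member called higher by edgeR. Coagulation components had negative values for 13 of 14 genes and coagulation inhibitors for 7 of 7. Of all tested genes 2.80% were called lower, 4.22% were called higher and 50.1% had a negative value. The subdivisions used below were drawn after values had been seen and are descriptive.

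In the classical pathway 1 of 5 genes fell. C1s1 encodes the C1s protease, which cleaves C4 and C2 (ENSMUSG00000038521, chromosome 6, 124530345 to 124542359). Its level was 549, 648 and 618 CPM in WT and 379, 443 and 348 CPM in SCADD. The groups were apart, with SCADD replicate 3 lowest and means of 605 ± 51.1 and 389.7 ± 48.5 CPM (SD, n = 3 each). This was 0.644-fold of WT (log2 fold change -0.63 with SE 0.16, edgeR adjusted p = 0.0392). The call was lost without SCADD replicate 1 (adjusted p = 0.144), WT replicate 1 (0.0585), WT replicate 2 (0.167) or WT replicate 3 (0.132). C1s1 has a close copy, C1s2, and how reads are shared between them is uncertain.

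C1ra, the C1r protease that activates C1s, had 124, 97.2 and 122 CPM in WT and 79.9, 101 and 74.3 CPM in SCADD, and SCADD replicate 2 overlapped with WT (log2 fold change -0.43 with SE 0.16, edgeR adjusted p = 0.146). Without SCADD replicate 2 edgeR called it lower (log2 fold change -0.578, adjusted p = 0.0485). It too has a close copy, C1rb, and its stranded counts came to 68.7% of the RSEM estimate. C1rl, a C1r-like protease, had 145 ± 10.5 CPM in WT and 145 ± 10.7 CPM in SCADD (log2 fold change 0.00 with SE 0.14, edgeR adjusted p = 0.996). C4b, which forms part of the C3 convertase after cleavage, had 309, 246 and 392 CPM in WT and 392, 461 and 334 CPM in SCADD, with overlapping groups (log2 fold change 0.33 with SE 0.20, edgeR adjusted p = 0.376). Its paralog C4a makes the split of reads uncertain. C2 provides the protease part of that convertase. Of its exonic bases 42.8% are shared with the same-strand model Gm20547, and its counts were 23.5% of the RSEM estimate. From RSEM counts the log2 fold change of C2 was -0.46 (with SE 0.17, edgeR adjusted p = 0.135).

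In the lectin pathway 1 of 4 genes fell. Mannose-binding lectins recognise sugars on microbes and carry the MASP proteases. Mbl2 (ENSMUSG00000024863, chromosome 19, 30232942 to 30239687) had 608, 837 and 719 CPM in WT and 349.7, 438 and 495 CPM in SCADD. Each SCADD library was below each WT library, with means of 721 ± 115 and 428 ± 73.4 CPM (SD, n = 3 each). Mbl2 was at 0.593-fold of WT (log2 fold change -0.75 with SE 0.19, edgeR adjusted p = 0.0371). The call was lost without SCADD replicate 1 (adjusted p = 0.146), WT replicate 2 (0.169) or WT replicate 3 (0.111).

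Mbl1, the gene of mannose-binding lectin A (ENSMUSG00000037780, chromosome 14, 41151458 to 41159601), had 326, 299 and 367 CPM in WT and 537, 394 and 799 CPM in SCADD. Each SCADD library was above each WT library, but SCADD varied widely, at 577 ± 206 CPM against 331 ± 34.0 CPM (SD, n = 3 each). The value did not pass edgeR's threshold (log2 fold change 0.80 with SE 0.24, edgeR adjusted p = 0.0690). DESeq2 gave an adjusted p of 0.0116, and edgeR gave 0.0088 without SCADD replicate 2. The proteases Masp1 (0.12 with SE 0.12, adjusted p = 0.627) and Masp2 (-0.15 with SE 0.14, adjusted p = 0.593), both by edgeR, had overlapping groups.

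**Figure D2:**
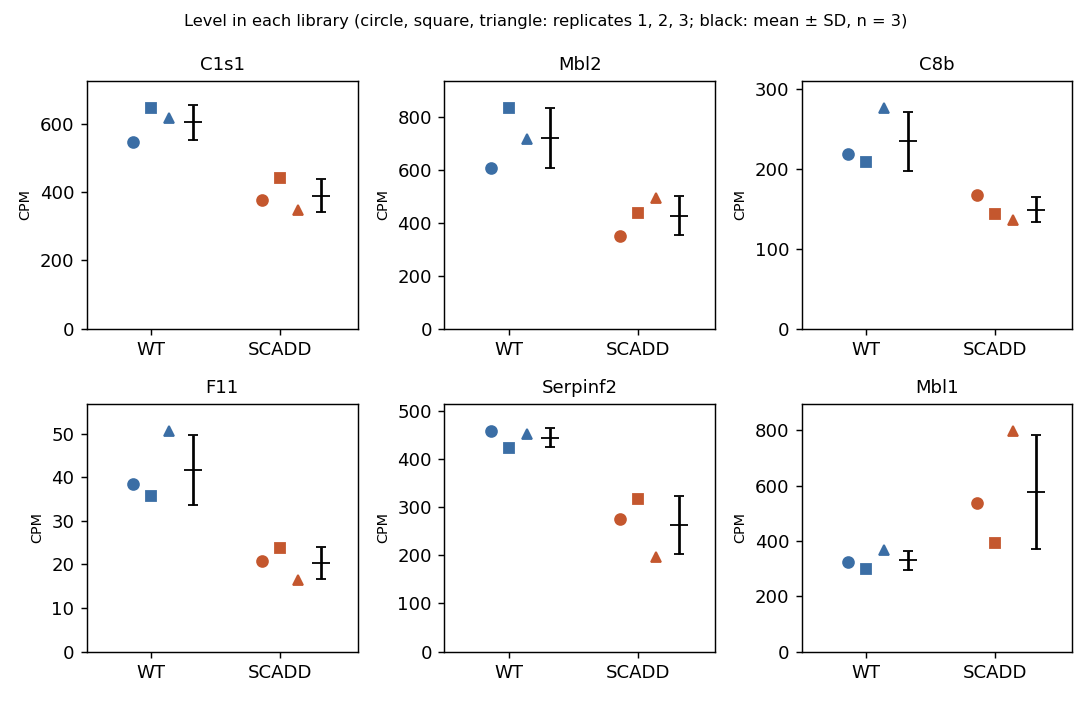
CPM of the 5 genes called lower and of Mbl1 in each library (vertical axes from 0; circle, square and triangle are replicates 1, 2 and 3; black marks are the mean ± SD, n = 3). For F11 the WT libraries lie between 35.7 and 50.7 CPM and the SCADD libraries between 16.4 and 23.9 CPM, while for Mbl1 the SCADD libraries, 394 to 799 CPM, lie above the WT libraries.

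In the alternative pathway 0 of 3 tested genes passed the threshold by edgeR or DESeq2, and 1 had an unadjusted p under 0.05 (Cfp). C3, the component on which all routes converge, had 2325, 1749 and 1967 CPM in WT and 2613, 2967 and 1856 CPM in SCADD. SCADD replicates 1 and 2 lay above the WT libraries and SCADD replicate 3 lay among them (log2 fold change 0.30 with SE 0.21, edgeR adjusted p = 0.453). Cfp, properdin, stabilises the alternative convertase and is made largely by leukocytes. It had 12.3, 10.2 and 10.6 CPM in WT and 8.20, 7.97 and 9.12 CPM in SCADD, and the groups did not overlap (log2 fold change -0.39 with SE 0.15, edgeR adjusted p = 0.141). Summed TPM of 12 Kupffer cell markers was 190 to 263 in WT and 163 to 193 in SCADD, and its part in the value of Cfp was not tested. EdgeR and DESeq2 called 0 of the 12, of which 2 had an unadjusted edgeR p under 0.05.

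Cfb, factor B, is the protease of the alternative convertase. Its gene model shares 79.5% of its exonic bases with Gm20547, and the stranded counts were 1.07% of the RSEM estimate, so its CPM is not a level. In TPM it had 502, 506 and 454 in WT and 415, 496 and 257 in SCADD, and from RSEM counts its log2 fold change was -0.27 (with SE 0.18, edgeR adjusted p = 0.421). Cfd, factor D (adipsin), is made mainly in fat. It had 72, 0 and 1 counts in WT and 2, 1 and 0 counts in SCADD, and did not pass the filter on low counts. The limit that a count of 0 allows, 3 counts, was between 0.111 and 0.177 CPM over the 6 libraries. For this limit the counts were scaled to all gene reads of the library, without the TMM factor. Of the 7 adipocyte markers, 4 were highest in WT replicate 1 (Adipoq at 4.42 TPM, Plin1, Lep and Retn), 1 in SCADD replicate 1 (Cidec) and 2 in SCADD replicate 3 (Fabp4 at 70.94 TPM and Cidea). The 7 summed to 24.2 to 52.5 TPM in WT and 23.5 to 94.5 TPM in SCADD, and their part in the Cfd count was not tested.

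Among the terminal components 1 of 6 fell. C8 has 3 chains, and C8b encodes the beta chain (ENSMUSG00000029656, chromosome 4, 104766317 to 104804548). Its level was 219, 208 and 277 CPM in WT and 167, 144 and 136 CPM in SCADD. The groups did not overlap, with means of 235 ± 36.9 and 149 ± 16.0 CPM (SD, n = 3 each), 0.635-fold of WT (log2 fold change -0.65 with SE 0.16, edgeR adjusted p = 0.0354). The call held without SCADD replicate 3 (adjusted p = 0.0322) and was lost without SCADD replicate 1 (0.0641), SCADD replicate 2 (0.0558), WT replicate 1 (0.0604), WT replicate 2 (0.0775) or WT replicate 3 (0.15).

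The neighbouring gene C8a, the alpha chain, had 1034, 1043 and 1144 CPM in WT and 804, 860.5 and 783 CPM in SCADD. These did not overlap, yet edgeR did not call the gene (log2 fold change -0.40 with SE 0.15, edgeR adjusted p = 0.152) and DESeq2 did (adjusted p = 0.0345). C8g, the gamma chain, lies on another chromosome and had 611 ± 95.9 CPM in WT and 604 ± 112 CPM in SCADD, with overlapping groups (log2 fold change -0.02 with SE 0.19, edgeR adjusted p = 0.975). C9, the pore-forming component, had 749, 719 and 1054 CPM in WT and 609.6, 584 and 626 CPM in SCADD. Here WT replicate 3 was high and the SCADD libraries lay close together below WT (log2 fold change -0.47 with SE 0.18, edgeR adjusted p = 0.153).

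Hc encodes C5, the first terminal component (-0.02 with SE 0.15, adjusted p = 0.957, edgeR), and its groups overlapped. C6 had the largest SE of the tested members, with 34.9, 17.3 and 36.1 CPM in WT and 43.6, 16.0 and 57.4 CPM in SCADD, low in replicate 2 of each group and higher in the others (log2 fold change 0.40 with SE 0.52, edgeR adjusted p = 0.712). Same-numbered animals of the groups are not paired by the labels.

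Of the complement inhibitors 0 of 3 passed the threshold, and 0 had an unadjusted p under 0.05 by edgeR, with 0 called by DESeq2. Serping1, the C1 inhibitor, also blocks kallikrein and factor XII. It had 297, 249.7 and 276 CPM in WT and 337, 403 and 306 CPM in SCADD. Each SCADD library was above each WT library (log2 fold change 0.34 with SE 0.16, edgeR adjusted p = 0.228). Cfi, factor I, which cleaves C3b and C4b, had 519 ± 53.7 CPM in WT and 406 ± 79.1 CPM in SCADD without overlap (log2 fold change -0.35 with SE 0.18, edgeR adjusted p = 0.281). C4bp, a cofactor of factor I, had 574 ± 80.6 and 595 ± 74.0 CPM with overlap (log2 fold change 0.05 with SE 0.17, edgeR adjusted p = 0.901).

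The contact system starts clotting on negatively charged surfaces: factor XII and prekallikrein activate each other, kininogen holds them in place, and factor XI passes the signal on. All 4 genes had non-overlapping groups in CPM, lower in SCADD, as 13.1% of all tested genes did, and 1 was called. In TPM the groups of Kng1 and Klkb1 overlapped. F11 (ENSMUSG00000031645, chromosome 8, 45241174 to 45262031) had 38.6, 35.7 and 50.7 CPM in WT and 20.8, 23.9 and 16.4 CPM in SCADD. The lowest WT library was well above the highest SCADD library, with means of 41.7 ± 7.97 and 20.4 ± 3.73 CPM (SD, n = 3 each). F11 was at 0.489-fold of WT (log2 fold change -1.03 with SE 0.18, edgeR adjusted p = 0.00716). It is the member with the lowest log2 fold change and the lowest p in this fit. The call held when each of the 6 libraries was left out in turn, with adjusted p between 0.00335 and 0.0315. It held in 17 of 20 alternatives and was lost in the 3 fits on log2 TPM (adjusted p = 0.0597 to 0.0682).

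Kng1, kininogen, had 2032, 2605 and 1954 CPM in WT and 1506, 1756 and 927 CPM in SCADD. SCADD replicate 3 was far below the other SCADD libraries (log2 fold change -0.65 with SE 0.24, edgeR adjusted p = 0.136). DESeq2 called Kng1 lower (adjusted p = 0.0456), and reads are uncertain between it and its copy Kng2. F12, factor XII, had 197, 179 and 190.3 CPM in WT and 164, 153 and 126 CPM in SCADD (log2 fold change -0.35 with SE 0.15, edgeR adjusted p = 0.182). Klkb1, prekallikrein, shares 43.2% of its exonic bases with the same-strand model Gm45753, and its counts were 62.4% of the RSEM estimate. In TPM it had 71.2, 74.0 and 61.3 in WT and 69.4, 70.9 and 39.6 in SCADD, which overlap, and from RSEM counts its log2 fold change was -0.17 (with SE 0.16, edgeR adjusted p = 0.575).

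The vitamin K-dependent factors are proteases that need gamma-carboxylation to bind membranes. Of these 0 of 4 passed the threshold by edgeR or DESeq2, and F7 had an unadjusted p under 0.05. F2, prothrombin, had 1532, 1563 and 1631 CPM in WT and 1268, 1373 and 1006 CPM in SCADD, without overlap (log2 fold change -0.37 with SE 0.17, edgeR adjusted p = 0.234). F7, which starts the tissue factor route, had 44.5, 47.6 and 47.9 CPM in WT and 34.4, 44.4 and 26.2 CPM in SCADD. Its SCADD replicate 2 nearly reached WT replicate 1 (log2 fold change -0.41 with SE 0.18, edgeR adjusted p = 0.194), and without SCADD replicate 2 the adjusted p was 0.0337. F10, the protease of prothrombinase, had 152, 149 and 149.6 CPM in WT and 127, 164 and 91.9 CPM in SCADD, so the WT libraries were close together and SCADD replicate 2 lay above them (log2 fold change -0.24 with SE 0.19, edgeR adjusted p = 0.521). F9, deficient in haemophilia B, overlapped between groups (log2 fold change -0.06 with SE 0.17, edgeR adjusted p = 0.890).

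F5 encodes factor V, the cofactor of factor X. It had 189, 166 and 151 CPM in WT and 209, 263 and 194 CPM in SCADD, and each SCADD library was above each WT library. The difference did not pass the threshold (log2 fold change 0.40 with SE 0.16, edgeR adjusted p = 0.178). The other 13 coagulation components had negative log2 fold changes. F13b, the carrier chain of the fibrin-crosslinking factor XIII, had 440.3 ± 22.3 CPM in WT and 371 ± 40.01 CPM in SCADD, without overlap (log2 fold change -0.25 with SE 0.15, edgeR adjusted p = 0.372).

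Fibrinogen is built from 3 chains whose genes lie side by side on chromosome 3, and plasmin, from plasminogen, digests fibrin. Of these 4 genes 0 passed edgeR's threshold, and 2 had an unadjusted p under 0.05. Fgb had 6218, 7188 and 7636 CPM in WT and 5240.1, 4232 and 4496 CPM in SCADD (log2 fold change -0.59 with SE 0.19, edgeR adjusted p = 0.0868). Fgg had 5562, 6197 and 6414 CPM in WT and 4653, 3646 and 3891 CPM in SCADD (log2 fold change -0.58 with SE 0.18, edgeR adjusted p = 0.0900). For both genes the SCADD libraries lay below the WT libraries, and DESeq2 called both (adjusted p = 0.00374 and 0.00446). Fga had 1503, 1695 and 1352 CPM in WT and 1446, 1463 and 858 CPM in SCADD. Its SCADD replicates 1 and 2 lay among the WT libraries and SCADD replicate 3 far below (log2 fold change -0.27 with SE 0.22, edgeR adjusted p = 0.520). Plg, plasminogen, had 2006, 1997 and 2095 CPM in WT and 1617, 1818 and 1279 CPM in SCADD, without overlap (log2 fold change -0.37 with SE 0.18, edgeR adjusted p = 0.255).

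All 7 inhibitors of coagulation or fibrinolysis had non-overlapping groups in CPM, lower in SCADD, and 1 was called. Over all tested genes 13.1% were apart and lower, and 2.80% were called lower. Serpinf2 encodes alpha-2-antiplasmin, the main inhibitor of plasmin (ENSMUSG00000038224, chromosome 11, 75431732 to 75439591). Its level was 459, 422 and 452 CPM in WT and 275, 317 and 197 CPM in SCADD. WT libraries were close together and SCADD replicate 3 was lowest, with means of 444 ± 19.3 and 263 ± 60.7 CPM (SD, n = 3 each). This was 0.592-fold of WT (log2 fold change -0.76 with SE 0.18, edgeR adjusted p = 0.0349). The call was lost without SCADD replicate 1 (adjusted p = 0.0968), WT replicate 1 (0.0855), WT replicate 2 (0.108) or WT replicate 3 (0.111).

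Serpind1, heparin cofactor II, which inhibits thrombin, had 839.9, 1287 and 999 CPM in WT and 593, 775 and 446 CPM in SCADD. The groups were apart but each was spread (log2 fold change -0.79 with SE 0.23, edgeR adjusted p = 0.0696), with a DESeq2 adjusted p of 0.00846 and an edgeR one of 0.0203 without SCADD replicate 2. Serpinc1, antithrombin, had 1884, 1983 and 2055 CPM in WT and 1586, 1781 and 1384 CPM in SCADD (log2 fold change -0.32 with SE 0.17, edgeR adjusted p = 0.303). Proz, protein Z, which helps to inhibit factor X, had 280.1, 316 and 331 CPM in WT and 186, 261 and 160.2 CPM in SCADD (log2 fold change -0.61 with SE 0.19, edgeR adjusted p = 0.0817). DESeq2 called Proz (adjusted p = 0.0235), as did edgeR without SCADD replicate 2 (adjusted p = 0.0103).

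Proc, protein C, which inactivates factors V and VIII, had 468 ± 19.2 CPM in WT and 373 ± 39.2 CPM in SCADD (log2 fold change -0.33 with SE 0.15, edgeR adjusted p = 0.224). Its cofactor Pros1, protein S, had 29.2 ± 0.708 and 24.3 ± 2.49 CPM (log2 fold change -0.27 with SE 0.13, edgeR adjusted p = 0.241). Cpb2, a carboxypeptidase that slows fibrinolysis, had 449 ± 72.0 and 352 ± 37.7 CPM (log2 fold change -0.35 with SE 0.17, edgeR adjusted p = 0.248). Means are given with SD, n = 3 each.

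Hgfac, the protease that activates hepatocyte growth factor, had 88.2, 83.1 and 94.7 CPM in WT and 58.2, 78.3 and 39.5 CPM in SCADD. SCADD replicate 2 lay just under the WT libraries and SCADD replicate 3 far below (log2 fold change -0.59 with SE 0.21, edgeR adjusted p = 0.124). Without SCADD replicate 2 edgeR called it, at an adjusted p of 0.0138. Vtn, vitronectin, an adhesion protein that also blocks the terminal complement complex, had 668, 655 and 686 CPM in WT and 711, 888 and 552 CPM in SCADD, with the SCADD libraries on both sides of WT (log2 fold change 0.10 with SE 0.19, edgeR adjusted p = 0.812).

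In levels per transcript length, 44 of the 45 genes had at least 1 TPM in each library, Cfd being the exception. Mean WT levels were above 100 TPM for 28 genes and above 1000 TPM for 4. These 4 were Fgg (3647 ± 59.7 TPM), Serpinc1 (2132 ± 20.9 TPM), Fgb (1764 ± 85.6 TPM) and Kng1 (1159.8 ± 193 TPM; SD, n = 3 each). The 5 called genes spanned the range, from F11 at 17.5 ± 2.49 TPM and C8b at 104 ± 13.1 TPM to Mbl2 at 715 ± 97.7 TPM in WT. All 45 summed to 18188, 18486 and 18189 TPM in WT and to 15288, 16071 and 10060 TPM in SCADD. TPM is a share of all transcripts, and major urinary protein (Mup) genes took 32278 to 41585 TPM in WT and 73684, 85257 and 148379 TPM in SCADD. SCADD replicate 3 had the highest Mup share and the lowest sum over members. The part of the Mup share in that sum, and in the summed TPM of the marker lists, was not tested. In TPM rescaled without the Mup genes, limma called 0 members at an adjusted p under 0.05, where it called 1.16% of genes lower. At an unadjusted p under 0.05 there were 12 of 44 members, 11 of them lower. The share of all genes at that unadjusted threshold was not computed for this fit. The members' median log2 fold change in it was -0.325, against 0.0289 for all genes. Before the rescaling, limma on log2(TPM + 1) called 1 member, Mbl2, and these medians were -0.419 and -0.054.

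**Figure D3:**
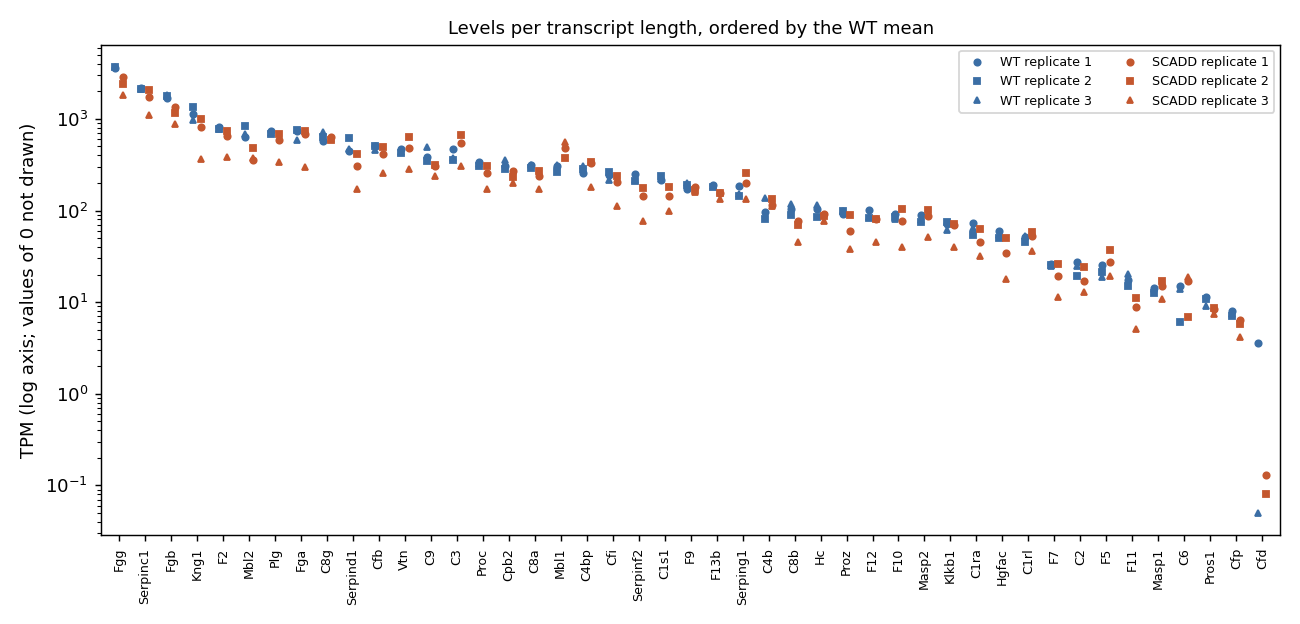
TPM of the 45 genes in each library on a log axis, ordered by the WT mean, blue for WT and orange for SCADD. Levels run from above 1000 TPM for Fgg and Serpinc1 to Cfd, seen at 3.54 TPM in WT replicate 1, and the SCADD replicate 3 points (orange triangles) are often the lowest.

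Ratios of TPM between 2 members within a library do not depend on the library's scaling. The 8 pairs were chosen after values had been seen, and the exact two-sided permutation test on log2 ratios cannot go below p = 0.1 with 3 against 3 libraries. The Mbl1 to Mbl2 ratio was 0.477, 0.318 and 0.464 in WT and 1.35, 0.783 and 1.46 in SCADD. SCADD minus WT was 1.48 in log2 (exact permutation p = 0.1, 0.2 after Benjamini-Hochberg adjustment over 8 ratios). Mbl2 exceeded Mbl1 in all 3 WT libraries, and Mbl1 exceeded Mbl2 in SCADD replicates 1 and 3. The F11 to Klkb1 ratio was 0.243, 0.205 and 0.329 in WT and 0.126, 0.156 and 0.128 in SCADD, a log2 difference of -0.90 (exact permutation p = 0.1, adjusted 0.2).

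Also without overlap were C8b to C8g, with a log2 difference of -0.66, and Serpinf2 to Plg, with -0.40 (exact permutation p = 0.1 each, adjusted 0.2). C8b to C8a (-0.26), C1s1 to C1ra (-0.21) and Fgb to Fga (-0.28) overlapped between groups, with exact permutation p from 0.2 to 0.4. The Fgg to Fgb ratio varied least of these, at 2.07 ± 0.0685 in WT and 2.09 ± 0.0387 in SCADD (SD, n = 3 each; exact permutation p = 0.8).

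**Figure D4:**
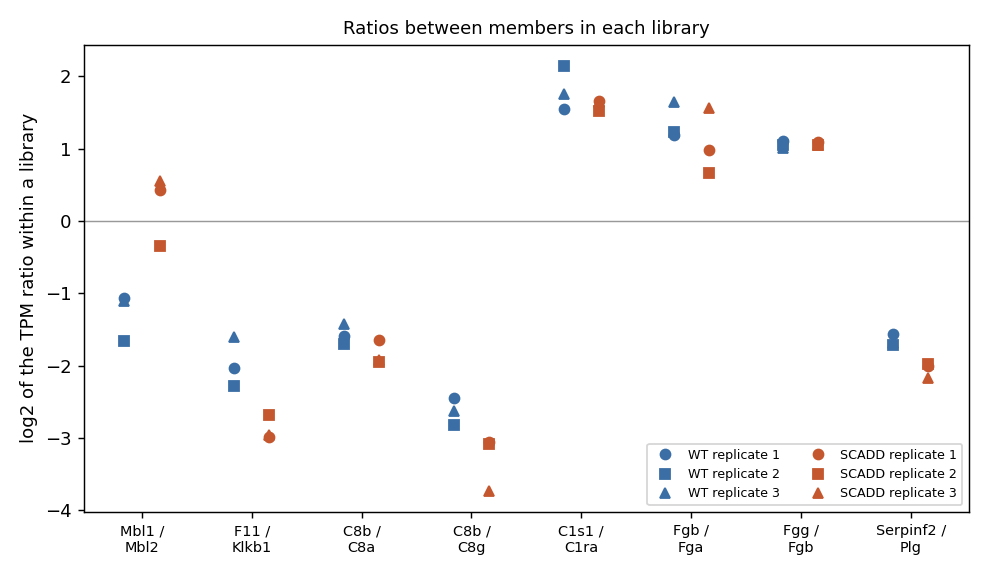
Log2 of the TPM ratio of 8 pairs of members in each library, blue for WT and orange for SCADD, with symbols for replicates 1, 2 and 3. The groups are apart for Mbl1 to Mbl2, F11 to Klkb1, C8b to C8g and Serpinf2 to Plg, while Fgg to Fgb is nearly level across the 6 libraries.

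Genes whose start lies within 250 kb of that of a called member were examined to see whether neighbours moved with it, with the window chosen after values had been seen. Around F11 edgeR called 0 of 5 tested neighbours, with 1 at an unadjusted p under 0.05 and 1 called by DESeq2. The neighbour with the lowest edgeR p, Cyp4v3, was higher in SCADD, opposite to F11 (0.49, SE 0.16, adjusted p = 0.09). Around C8b edgeR called 0 of 2, and C8a had an unadjusted p under 0.05 and was called by DESeq2. Of 14 tested neighbours of C1s1, C1s2 fell and 2 rose: Pex5, a peroxisomal import receptor (0.62, SE 0.13, adjusted p = 0.0187) and Clstn3 (4.27, SE 0.38, adjusted p = 0.000713). Of 2 neighbours of Mbl2, Gldc, of the glycine cleavage system, fell (-0.65, SE 0.17, adjusted p = 0.0481). Myo1c rose among 17 neighbours of Serpinf2 (0.55, SE 0.13, adjusted p = 0.0287). Values are log2 fold changes by edgeR. At an unadjusted edgeR p under 0.05 there were 8 of the 14 neighbours of C1s1, in both directions. There were also 1 of the 2 of Mbl2 and 3 of the 17 of Serpinf2. Of all tested genes 10.2% were lower at that threshold, and the share higher was not computed. EdgeR called 7.02% of all tested genes in either direction. The call of Clstn3 held without each library in turn. Those of Pex5, Gldc and Myo1c were lost without SCADD replicate 1 (adjusted p = 0.0774, 0.0807 and 0.081), WT replicate 2 (0.107, 0.152 and 0.105) or WT replicate 3 (0.0885, 0.126 and 0.12), and those of Gldc and Myo1c also without WT replicate 1 (0.106 and 0.072).

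Among 27 other complement genes (C1q chains, ficolins, collectins, receptors and membrane regulators), 22 were tested, 2 were lower and 1 was higher. For this list and those that follow, the shares of all tested genes were 2.80% called lower and 4.22% called higher. Cd59a, which blocks the lytic pore on host cells, rose from 48.8, 62.6 and 67.0 CPM in WT to 102, 123.2 and 150.1 CPM in SCADD, a fold of 2.10 (log2 fold change 1.07 with SE 0.18, edgeR adjusted p = 0.00616). That call held without each library in turn. Cr1l, a membrane inhibitor of C3 activation also named Crry, had 59.0, 66.5 and 56.7 CPM in WT and 44.0, 38.1 and 35.3 CPM in SCADD (log2 fold change -0.63 with SE 0.13, edgeR adjusted p = 0.0185). Its call was lost without WT replicate 2 (adjusted p = 0.0976) or WT replicate 3 (0.052). C1s2, the copy of C1s1, had 45.2 ± 3.98 and 29.5 ± 5.23 CPM (log2 fold change -0.61 with SE 0.15, edgeR adjusted p = 0.0381), and lost its call without SCADD replicate 1 (0.0872) or WT replicate 1, 2 or 3 (0.0546, 0.137 and 0.138). Collectin Colec10 (-0.71 with SE 0.27, adjusted p = 0.151), C1qa (-0.41 with SE 0.17, adjusted p = 0.176) and the C3a receptor C3ar1 (-0.75 with SE 0.33, adjusted p = 0.203) did not pass. Without SCADD replicate 3 edgeR called Colec10 lower (log2 fold change -1.12, adjusted p = 0.00108) and C1qa lower (-0.629, adjusted p = 0.00947).

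Among 31 other coagulation and fibrinolysis genes, 21 were tested, 1 was lower and 1 was higher. Tfpi, the tissue factor pathway inhibitor made by endothelium, had 10.3, 9.22 and 8.45 CPM in WT and 4.04, 4.86 and 6.64 CPM in SCADD (log2 fold change -0.86 with SE 0.20, edgeR adjusted p = 0.0273). The Tfpi call was lost without SCADD replicate 1 (adjusted p = 0.108) or WT replicate 1, 2 or 3 (0.0747, 0.0976 and 0.0608). F8, factor VIII, made in liver endothelium, was just short of the threshold (log2 fold change -0.62 with SE 0.17, edgeR adjusted p = 0.0519). It was called lower by DESeq2 (adjusted p = 0.0252) and by edgeR without SCADD replicate 3 (adjusted p = 0.00659). The thrombin receptor F2r (-0.51 with SE 0.16, adjusted p = 0.0772) and Kng2 (-0.61 with SE 0.20, adjusted p = 0.0935) were also uncalled. With 1 library left out, edgeR called F2r lower without SCADD replicate 3 (adjusted p = 0.0399) and Kng2 lower without SCADD replicate 2 (0.0337). DESeq2 called Kng2 lower with all 6 (adjusted p = 0.0290). Summed TPM of 10 sinusoidal endothelial markers was 163 to 203 in WT and 103 to 134 in SCADD. In CPM 5 of the 10 had non-overlapping groups, each lower in SCADD, as 13.1% of all tested genes did. Lyve1 was called lower (log2 fold change -1.398 with SE 0.29, edgeR adjusted p = 0.0152), but not without WT replicate 2 (0.0703) or WT replicate 3 (0.0625). The markers' part in the values of Tfpi and F8 was not tested.

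Of 7 genes of the vitamin K cycle, 1 was higher: Aifm2, a vitamin K reductase (log2 fold change 0.53 with SE 0.13, edgeR adjusted p = 0.0327), with 17.1 ± 1.67 CPM in WT and 24.8 ± 1.25 CPM in SCADD. That call was kept without SCADD replicate 3. Its adjusted p was 0.131 without SCADD replicate 1, 0.0725 without SCADD replicate 2, 0.123 without WT replicate 1, 0.132 without WT replicate 2 and 0.0611 without WT replicate 3. Nqo1, a quinone reductase (0.74 with SE 0.28, adjusted p = 0.152), Ggcx, the gamma-carboxylase itself (-0.33 with SE 0.13, adjusted p = 0.152), and Calu, calumenin (-0.34 with SE 0.14, adjusted p = 0.165), did not pass. Of 13 hepatocyte transcription factors, 1 was higher: Prox1, with 31.9, 33.6 and 32.0 CPM in WT and 57.4, 51.7 and 52.7 CPM in SCADD (log2 fold change 0.73 with SE 0.12, edgeR adjusted p = 0.00516). Hnf4a (0.44 with SE 0.17, adjusted p = 0.147), Foxa2 (-0.65 with SE 0.26, adjusted p = 0.171) and Nr5a2 (0.30 with SE 0.13, adjusted p = 0.216) were not called, though without SCADD replicate 3 edgeR called Hnf4a higher (adjusted p = 0.0307).

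Many members belong to the acute phase, so 21 acute phase genes were set beside them. Of 20 tested, 1 was lower and 2 were higher. Fgl1, a hepatocyte fibrinogen-like protein, had 138, 208 and 223 CPM in WT and 451, 331 and 696 CPM in SCADD (log2 fold change 1.38 with SE 0.28, edgeR adjusted p = 0.0151), and its adjusted p was 0.0607 without WT replicate 2. Lcn2, lipocalin 2, was low in all libraries and had 0.506, 0.656 and 0.863 CPM in WT and 1.84, 2.26 and 2.11 CPM in SCADD (log2 fold change 1.61 with SE 0.29, edgeR adjusted p = 0.00850). Itih3, an inter-alpha-trypsin inhibitor chain, had 542, 549 and 593 CPM in WT and 410.5, 364 and 269 CPM in SCADD (log2 fold change -0.69 with SE 0.18, edgeR adjusted p = 0.0443). The Itih3 call was lost without SCADD replicate 1 (adjusted p = 0.0553), SCADD replicate 2 (0.0523) or WT replicate 1, 2 or 3 (0.0878, 0.142 and 0.149). The list's median log2 fold change was 0.23, above that of the members. Its summed TPM was 9544 to 11699 in WT and 7515 to 9419 in SCADD, lower in each SCADD library, so median and sum differ in direction. They are unlike measures: the median is of edgeR values with each gene counted equally, and abundant genes weigh most in the TPM sum. The sum is also a share of all transcripts, of which Mup genes took 32278 to 41585 TPM in WT and 73684 to 148379 TPM in SCADD. The part of the Mup share in this sum was not tested.

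Of 10 hepatocyte markers 2 were lower, Cps1 (log2 fold change -0.97 with SE 0.17, edgeR adjusted p = 0.00728) and Ahsg (log2 fold change -0.98 with SE 0.20, edgeR adjusted p = 0.0142), and the list's median was -0.13. Cps1 was at 0.0504 without WT replicate 2, and Ahsg at 0.0984 without WT replicate 2 and 0.0546 without WT replicate 3. Hepatocyte markers summed to 69053 to 95035 TPM in WT and 44669 to 88525 TPM in SCADD, so the groups overlapped. Cholangiocyte markers summed to 36.3 to 44.5 TPM in WT and 26.4 to 29.2 TPM in SCADD, and 0 of 3 tested were called by edgeR or DESeq2, with 2 at an unadjusted p under 0.05. Among 5 erythroid markers Alas2, of haem synthesis, was higher (log2 fold change 1.13 with SE 0.17, edgeR adjusted p = 0.00357), and the 5 summed to 2278 to 3321 TPM in WT and 1643 to 4613 TPM in SCADD. EdgeR called 0 stellate cell, lymphocyte, neutrophil and monocyte or adipocyte markers, where Acta2 of stellate cells reached an unadjusted p under 0.05 and was called by DESeq2. The part of these cell types in the values of the members was not tested.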

How the data were processed

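Poly(A) RNA of 6 livers was sequenced. The submitters' processing notes name STAR 2.7.6a, RSEM 1.3.3 and GRCm38, with no annotation release given in the sources used here. The authors deposited whole-number read counts per gene (not normalised), RSEM expected counts, and TPM scaled by their RSEM run by transcript length to an equal total per library. The deposited FPKM values were not used. The fourth column of the count tables, holding 96.8% to 97.3% of stranded reads, was used. Summary rows were left out of library sizes, with unmapped reads at 13.6% to 36.6%. GENCODE M21 gave symbols for 55141 of 55487 IDs.

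All 6 libraries were fitted with edgeR 4.0.16 (R 4.3.3; filterByExpr with minimum count 10, TMM, robust quasi-likelihood), with no covariate. Benjamini-Hochberg adjustment ran over 13498 genes. SE is the absolute log2 fold change over the root of the F statistic. DESeq2 1.42.0 and limma 3.58.1 were among 20 alternatives. RSEM expected counts were rounded for theirs. The gene test was checked on simulated data. Replicates differed beyond sampling noise (chi-square over its degrees of freedom, 32.8 to 121). Limits from 0 counts cover counting error only. Every member could be named, with per-library values for genes past the threshold and those anchoring a pathway, and, of other lists, genes past it and up to 3 others by smallest p. Members, lists and motifs were chosen with earlier results of these data known. A gene taken by this rule is not reported here, though it stands in the counts of its list.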

Additional observations from a re-analysis of the deposited data

How the results depend on the processing

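Of 45 genes, 5 were called lower and 0 higher. DESeq2 gave 11 lower and 1 higher, no filter 9 and 1, log2(TPM + 0.1) or log2(TPM + 1) with limma 1 and 0 each (Mbl2), and TPM rescaled without Mup genes, an alternative chosen after seeing the data, 0 and 0. Leaving out 1 library gave 1 to 9 lower and 0 to 1 higher: F11 alone in 3 of these fits (SCADD replicate 1, WT replicate 2 or WT replicate 3 left out), 2 lower when WT replicate 1 was dropped, 5 lower for SCADD replicate 3, and 9 lower with 1 higher for SCADD replicate 2. RLE and upper-quartile scaling, 1 CPM in 3 libraries, limma-voom, edgeR without robust estimation, RSEM counts, unstranded counts and counts without Mup genes kept 5 and 0. The depth limits Cfd, and overlapping gene models limit Cfb, C2 and Klkb1.

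Over all genes, 378 were lower and 569 higher. No filter gave 752 and 950, log2(TPM + 0.1) 126 and 146, log2(TPM + 1) 130 and 147, rescaled TPM 122 and 201, and leaving out 1 library 155 to 681 and 240 to 909. Complement components (3 lower, 0 higher) gave 4 lower and 1 higher with DESeq2, and 1 higher with no filter. They gave 1 lower with either log2 TPM, 0 with rescaled TPM, and 0 to 3 lower and 0 to 1 higher without 1 library. Coagulation components (1 lower) gave 4 with DESeq2, 2 with no filter, 0 with each TPM fit and 1 to 2 without 1 library. Coagulation inhibitors (1 lower) gave 3 with DESeq2 or no filter, 0 with each TPM fit and 0 to 3 without 1 library. The adhesion and growth factor pair (0 lower) gave 1 with no filter and 0 to 1 without 1 library.

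Other complement genes (2 lower, 1 higher) gave 0 lower with each TPM fit, and 0 to 4 lower and 1 to 2 higher without 1 library. Other coagulation genes (1 lower, 1 higher) gave 4 lower with DESeq2, 3 with no filter, 2 with limma-voom or upper-quartile scaling, 0 lower and 0 higher with each TPM fit, and 0 to 3 lower without 1 library. Vitamin K cycle genes (1 higher) gave 2 with no filter, 0 with each TPM fit and 0 to 1 without 1 library. Transcription factors (0 lower, 1 higher) gave 1 lower with no filter, 0 higher with each TPM fit and 1 to 2 higher without 1 library. The TPM fits tested fewer genes in total but the same number of members, 44, and the cause of the changes between fits was not tested.

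With replicate number as a block, 8 members were lower and 1 higher (complement components 3 and 1, coagulation components 2 lower, coagulation inhibitors 3 lower, other coagulation genes 2 lower). Same-numbered samples correlated at 0.0606, 0.0372 and 0.107 in their deviations from the group means, and the other pairs at -0.127 to 0.0612. The labels give no pairing, and whether the numbers pair the samples was not tested.

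Log2 fold changes that changed sign were all uncalled. C1rl (0.0018) was -0.0046 with 1 CPM in 3 libraries, -0.0017 with DESeq2, -0.0018 with RLE, -0.06 and -0.05 with log2(TPM + 0.1) and log2(TPM + 1), -0.0036 with no filter, -0.05 with upper-quartile scaling and -0.05 to 0.06 without 1 library. Rescaled TPM gave 0.02 for Masp2 and 0.04 for C8g. Without 1 library Hc ran from -0.07 to 0.05, C8g from -0.17 to 0.10, F9 from -0.18 to 0.03, C4bp from -0.06 to 0.16 and Vtn from -0.09 to 0.26. Either log2 TPM gave -0.04 for C4bp and -0.02 for Vtn.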
